A study of Mus musculus with 8 samples.

Results

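The 32 genes described here encode proteins that build ribosomes or are classical transcriptional targets of the MYC oncoprotein, and they were chosen by symbol from the gene count tables. All 32 were among the 24421 symbols counted, and all 32 passed the filter on low counts that left 12623 genes for testing. RNA was measured by RNA-seq in leukemic bone marrow cells of C57BL/6 mice that had been transformed with the MLL-AF9 fusion oncogene and sorted for high levels of the stem cell factor receptor c-KIT. Both groups share that oncogene, sort and strain. The WT group (2 libraries) came from Ikzf2f/f mice and the KO group (2 libraries) from Ikzf2Δ/Δ mice, which have lost Ikzf2, the gene of the zinc finger transcription factor Helios. The sources used here do not state the age of the mice, the means of deletion, or whether a library held cells of 1 animal or a pool. The 4 chromatin accessibility samples named in the series were not analysed here.

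Ribosome production starts in the nucleolus, where RNA polymerase I transcribes a long rRNA precursor. Small nucleolar ribonucleoproteins (snoRNPs) guide the modification of this precursor, the small subunit processome and the large subunit assembly factors cut and fold it around ribosomal proteins, and the subunits are then exported to the cytoplasm. MYC binds E-boxes, short DNA motifs whose canonical form is CACGTG, in the promoters of many genes of this pathway and of polyamine and nucleotide synthesis. Rapidly growing cells, MLL-AF9 leukemic progenitors among them, are known for high activity of this program, which declines as myeloid cells mature.

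Because the canonical E-box is the motif by which MYC targets are usually recognised, the promoters of these genes were examined first. RefSeq (GRCm38.p6) gave promoter windows of 300 bases, 250 before and 50 after a transcription start, for 25 of the 32 genes, 28 windows in all. Bop1, Eif4ebp1, Fbl, Npm1, Rrp12, Srm and Tfap4 had no window. CACGTG, which reads the same on both strands, was present in 9 of the 28 windows (32.1%), belonging to 8 genes: Apex1, Eif4a1, Mybbp1a, Nme1, Pes1, Phb, Ran and Wdr43. The motif was found in 7.15% of all 32851 windows of the table, in 9.98% of the 12157 windows of tested genes, and in 20.2% of the 223 windows of the other pathway genes described below. The median GC content was 59.7% in the windows of the 32 genes and 60.3% in those of tested genes. Apex1 held 3 copies, whose first bases lay 24 bases before the start, at the start itself and 21 bases after it. The windows of the 6 genes with the most reads among those that hold the motif are shown, 5′ to 3′ on the gene's strand, with the E-box in capitals.
Mybbp1a, chr11:72441077-72441376, plus strand: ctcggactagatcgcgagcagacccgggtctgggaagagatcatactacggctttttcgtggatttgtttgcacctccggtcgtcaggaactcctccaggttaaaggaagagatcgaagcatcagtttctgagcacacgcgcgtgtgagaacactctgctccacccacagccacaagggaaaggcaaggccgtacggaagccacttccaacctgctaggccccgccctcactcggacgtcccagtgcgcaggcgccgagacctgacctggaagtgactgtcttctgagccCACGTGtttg
Eif4a1, chr11:69672374-69672673, minus strand: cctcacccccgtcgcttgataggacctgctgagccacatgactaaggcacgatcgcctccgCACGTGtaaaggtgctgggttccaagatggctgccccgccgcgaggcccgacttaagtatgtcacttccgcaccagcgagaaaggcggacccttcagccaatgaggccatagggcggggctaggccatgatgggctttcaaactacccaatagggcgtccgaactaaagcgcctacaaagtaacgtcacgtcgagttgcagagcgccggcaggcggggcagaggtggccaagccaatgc
Ran, chr5:129019906-129020205, plus strand: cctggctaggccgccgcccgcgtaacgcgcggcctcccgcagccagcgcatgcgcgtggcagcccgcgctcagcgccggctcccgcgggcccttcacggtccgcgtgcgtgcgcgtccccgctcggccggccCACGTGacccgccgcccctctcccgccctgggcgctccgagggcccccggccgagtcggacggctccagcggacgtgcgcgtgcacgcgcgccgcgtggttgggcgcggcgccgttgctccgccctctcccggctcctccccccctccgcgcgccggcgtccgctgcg
Pes1, chr11:3963725-3964024, plus strand: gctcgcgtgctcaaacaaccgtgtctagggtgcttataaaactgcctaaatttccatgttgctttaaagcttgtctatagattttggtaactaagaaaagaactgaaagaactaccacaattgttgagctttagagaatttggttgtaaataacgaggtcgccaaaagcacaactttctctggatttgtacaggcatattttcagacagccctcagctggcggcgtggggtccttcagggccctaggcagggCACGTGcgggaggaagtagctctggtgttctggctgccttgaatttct
Wdr43, chr17:71615965-71616264, plus strand: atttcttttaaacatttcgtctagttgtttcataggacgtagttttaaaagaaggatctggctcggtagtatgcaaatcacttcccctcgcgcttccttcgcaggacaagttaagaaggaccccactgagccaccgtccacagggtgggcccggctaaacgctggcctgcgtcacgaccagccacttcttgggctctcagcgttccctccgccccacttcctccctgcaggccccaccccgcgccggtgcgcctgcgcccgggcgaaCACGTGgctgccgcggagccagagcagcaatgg
Nme1, chr11:93968223-93968522, minus strand: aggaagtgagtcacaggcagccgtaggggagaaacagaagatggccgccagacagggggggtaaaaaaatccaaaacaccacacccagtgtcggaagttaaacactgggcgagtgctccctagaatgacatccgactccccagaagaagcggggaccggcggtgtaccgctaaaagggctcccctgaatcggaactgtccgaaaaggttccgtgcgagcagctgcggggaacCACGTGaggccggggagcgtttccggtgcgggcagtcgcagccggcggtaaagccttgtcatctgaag
The E-box began 40, 2 and 17 bases after the start in Mybbp1a, Pes1 and Wdr43, and at positions -189, -118 and -18 relative to the start in Eif4a1, Ran and Nme1. CAGCTG, the E-box bound by TFAP4, itself one of the 32 genes, was present in 4 of the 28 windows (14.3%) and in 16.3% of all windows. GGGAA, the core motif of the Ikaros family to which Helios belongs, was present on either strand in 15 windows (53.6%) and in 62.7% of all windows. None of the 3 motifs contains another, and a match does not show that a factor binds there.

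Gene counts came to 16006081 to 19286090 per library. Ikzf2 had WT levels of 283 and 271 CPM against KO levels of 10.9 and 26.5 CPM, where CPM are gene counts scaled to a common library total with TMM factors. Its log2 fold change (KO against WT) was -3.89 (SE 0.48, n = 2 per group), with an adjusted p of 0.332 by edgeR and 1.13e-13 by DESeq2, which called Ikzf2 with any library left out (adjusted p from 7.50e-46 to 5.38e-08). Both KO libraries lay far below both WT libraries, as their labels say, with more residual reads in KO replicate 2. KO replicate 1 differed from the other libraries in its sex-linked genes, with Xist at 833 CPM against 0.35 to 0.60 CPM elsewhere. Ddx3y, on chromosome Y, was at 0.062 CPM in KO replicate 1 against 70.1 to 109.5 CPM elsewhere. The part of this difference in the other values of KO replicate 1 given below was not tested. Of the 8 genes expected in this sort, Kit, Hoxa9, Hoxa10, Meis1, Flt3, Myb, Cd34 and Ptprc, all were detected in every library, and the lowest of these values was 69.1 CPM, for Flt3 in KO replicate 1. Markers of erythroid, B and T cells were mixed. Of the B cell markers Pax5 had at most 1 count and Cd79a 12 to 17, but Cd79b had 318 to 546, and of the T cell markers Cd3e had at most 1 count and Lck 89 and 68 in WT against 7 and 22 in KO. The erythroid factor Klf1 had 18 to 23 counts. The globin genes are listed at 0 in all 4 libraries, but so is Oaz1, which every cell uses, so these zeros do not show that globin RNA was absent. In bulk RNA, fewer cells of a type and less RNA per cell cannot be told apart, which holds for every value below.

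As a group the 32 genes stood lower in KO. They were chosen with earlier results of these data known, so the group was not tested as a set. The log2 fold change was below 0 for 28 of 32 (87.5%), against 50.5% of all genes tested, and the median was -0.36 with an interquartile range of -0.48 to -0.21, against a median of -0.0043 over all genes. Both KO libraries lay below both WT libraries for 22 of the 32 (68.8%), against 19.1% of all genes tested, and in the opposite order for 0 of the 32, against 18.1%. The other 10 genes overlapped between the groups. The summed level of the 32 genes came to 5926 and 5554 CPM for the WT libraries and to 4243 and 4866 CPM for the KO libraries, and its share of raw gene counts was 0.614% and 0.560% in WT and 0.428% and 0.460% in KO. WT replicate 1 was the highest library for 19 genes and KO replicate 1 the lowest for 17, with KO replicate 2 the lowest for 14. Over all genes tested these libraries were the highest or lowest in 23.9%, 30.7% and 26.3% of cases.

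**Figure D1:**
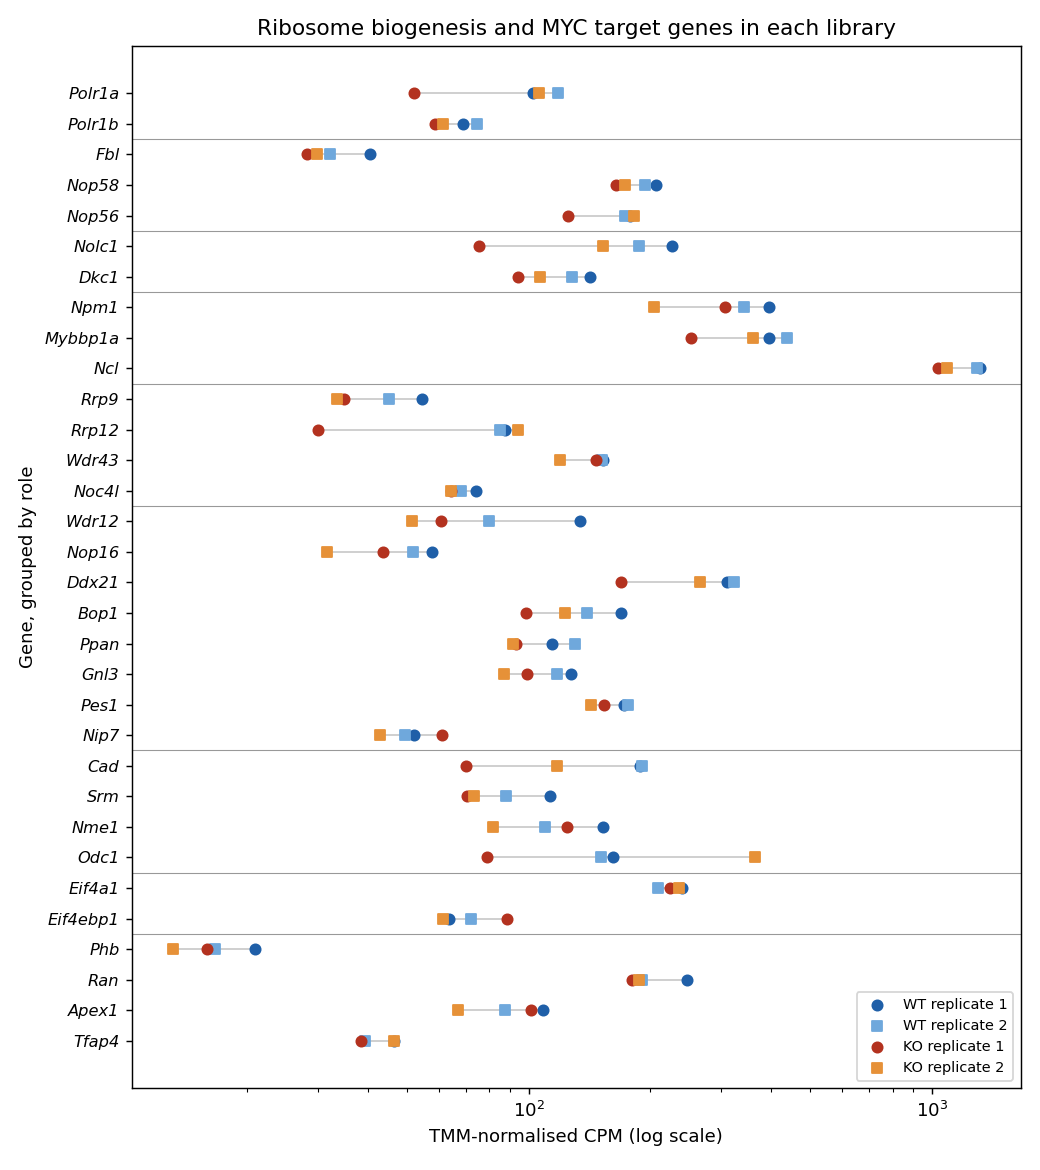
TMM-normalised CPM (log axis) of each of the 32 genes in the 4 libraries, with circles for replicate 1, squares for replicate 2, blue for WT and red or orange for KO, and horizontal rules between roles. Grey lines span the 4 values. In 22 rows both KO points lie to the left of both WT points, and Odc1 and Rrp12 show the widest gaps between the KO libraries.

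No single gene of the group passed the threshold. The quasi-likelihood test of edgeR called 0 of the 32 at an adjusted p of 0.05, as it called 0 of the 12623 genes (0%). At an unadjusted p of 0.05 it reached 2 of the 32 (6.25%), Cad and Wdr12, both lower, against 7.67% of all genes in either direction and 3.52% in the lower direction. DESeq2 called 0 of the 32, against 2.62% of 13422 genes with an adjusted p (1.07% lower and 1.56% higher), and limma voom called 0. The fitted change of Cad was the largest of the 32 in the lower direction, at -50.6%, and only Cad and Wdr12 had a 95% interval of the log2 fold change that excluded 0.

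**Figure D2:**
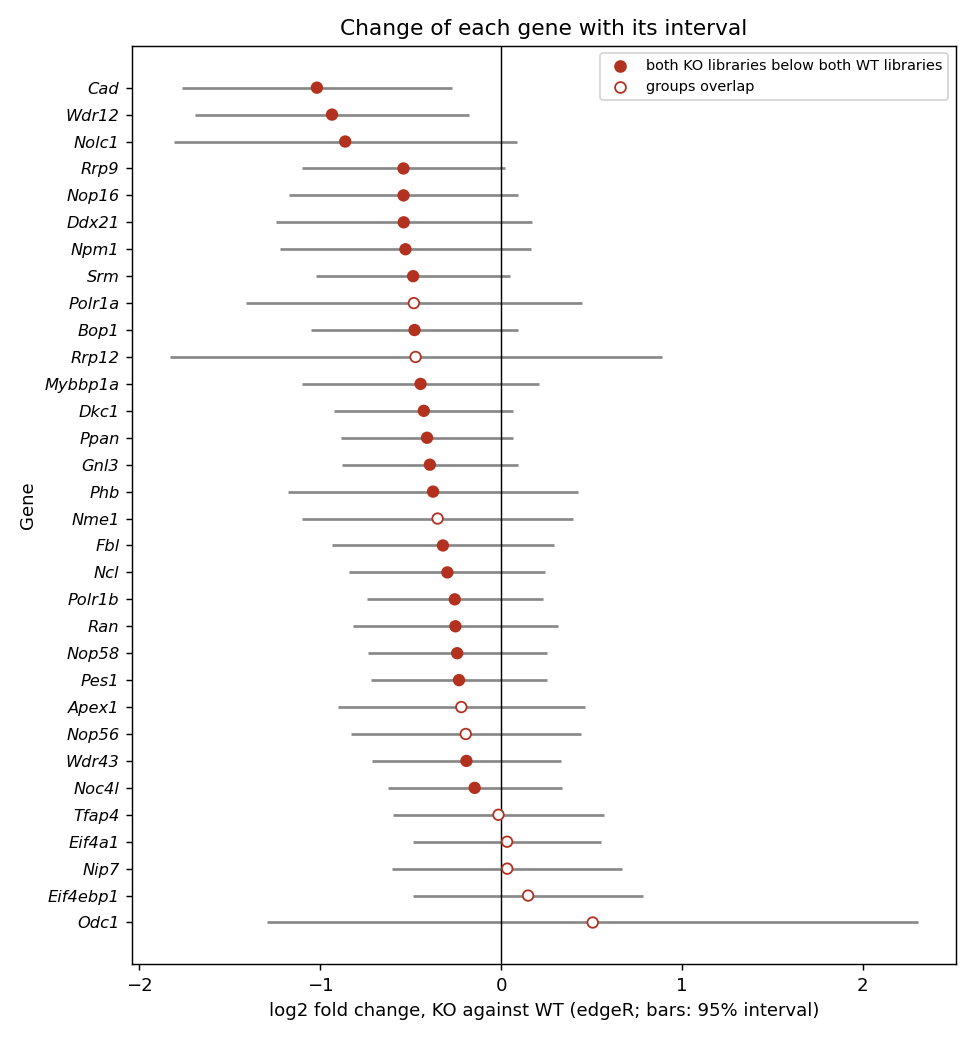
Log2 fold change of each of the 32 genes, KO against WT, by edgeR (points) with its 95% interval (bars), ordered from the lowest to the highest. Filled points mark the 22 genes whose groups do not overlap. The bars of Cad and Wdr12 stay below 0, and the widest bars belong to Odc1 and Rrp12.

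The subunits of RNA polymerase I, which transcribes the rRNA precursor, were represented by Polr1a and Polr1b. Polr1a, the largest subunit, had WT levels of 102 and 119 CPM against KO levels of 51.8 and 106 CPM. KO replicate 1 alone stood apart there, since KO replicate 2 lay between the WT libraries. The log2 fold change of Polr1a was -0.48 (95% interval -1.41 to 0.45) and came to -0.053 without KO replicate 1. Polr1b, the second catalytic subunit, had WT levels of 68.7 and 74.4 CPM against KO levels of 58.5 and 61.3 CPM (log2 fold change -0.26, SE 0.19), with no overlap between the groups.

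The core proteins of box C/D snoRNPs, which guide methylation of rRNA, are the methyltransferase fibrillarin (Fbl) and the scaffold paralogs Nop56 and Nop58. Nop58 had WT levels of 207 and 194 CPM against KO levels of 165 and 174 CPM, with both KO libraries below both WT libraries and a log2 fold change of -0.24 (SE 0.20). Its paralog Nop56 had WT levels of 179 and 173 CPM against KO levels of 125 and 182 CPM, so that KO replicate 2 was the highest of the 4 libraries and the groups overlapped. Without KO replicate 1 the log2 fold change of Nop56 was 0.054. Fbl had WT levels of 40.4 and 32.1 CPM against KO levels of 28.1 and 29.9 CPM (-0.32, SE 0.24), and its groups did not overlap.

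Of the 2 genes for snoRNP assembly and pseudouridylation, Nolc1, a nucleolar chaperone of snoRNPs, was among the lowest of the group. It had WT levels of 227 and 188 CPM against KO levels of 75.3 and 153 CPM. The libraries did not overlap, but the KO libraries lay further apart from each other than KO replicate 2 lay from WT. The log2 fold change of Nolc1 was -0.86 (SE 0.38, edgeR adjusted p = 0.688), and -0.44 without KO replicate 1. DESeq2 called Nolc1 with KO replicate 2 left out (adjusted p = 0.00109), where KO replicate 1 stood alone. Dkc1, the pseudouridine synthase dyskerin of box H/ACA snoRNPs (chromosome X, 75095854 to 75109776), had WT levels of 142 and 128 CPM against KO levels of 94.0 and 107 CPM (-0.43, SE 0.20). Dkc1 is X-linked and KO replicate 1 was the library with Xist, and the part of this in its lower value was not tested.

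Nucleolin (Ncl), nucleophosmin (Npm1) and Mybbp1a are abundant nucleolar proteins, the first 2 acting as histone chaperones and the third as a regulator of rRNA gene transcription. In all 3 both KO values lay under both WT values, as they did in 19.1% of all genes tested. Ncl (chromosome 1, 86344719 to 86359455) had WT levels of 1319 and 1292 CPM against KO levels of 1037 and 1088 CPM. Its replicates were the closest of the 32 genes, with log2 gaps of -0.030 within WT and 0.070 within KO, against a log2 fold change of -0.30 (95% interval -0.84 to 0.25). Npm1 (chromosome 11, 33152498 to 33164142), the gene most often mutated in human acute myeloid leukemia with a normal karyotype, had WT levels of 395 and 343 CPM against KO levels of 307 and 205 CPM (-0.53, SE 0.28). Here KO replicate 2 was the lower KO library. Mybbp1a had WT levels of 396 and 438 CPM against KO levels of 252 and 360.3 CPM (-0.44, SE 0.26), with KO replicate 1 the lower.

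Among the small subunit factors, Rrp9, a component of the U3 snoRNP, had WT levels of 54.3 and 45.0 CPM against KO levels of 34.9 and 33.4 CPM (log2 fold change -0.54, SE 0.22). The KO libraries were nearly equal and both lay below WT. Wdr43, a subunit of the processome, had WT levels of 153 and 152 CPM against KO levels of 147 and 119.9 CPM, with KO replicate 1 close to the WT libraries, and Noc4l, a partner of Nop14, had WT levels of 74.0 and 68.1 CPM against KO levels of 64.3 and 64.2 CPM. Their log2 fold changes were -0.19 (SE 0.21) and -0.15 (SE 0.19), both without overlap. Rrp12, an export factor of pre-ribosomes, had WT levels of 87.4 and 84.7 CPM against KO levels of 30.0 and 94.0 CPM. Only KO replicate 1 was low in Rrp12, and KO replicate 2 was the highest library. Its log2 fold change was -0.47 (95% interval -1.83 to 0.89), 0.13 with KO replicate 1 left out and -1.52 with only KO replicate 1, where DESeq2 called it (adjusted p = 0.00171).

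Of the 8 large subunit factors, 7 did not overlap, all 7 lower in KO (87.5%, against 19.1% of all genes tested). The median log2 fold change of the 8 was -0.44. Bop1, Pes1 and Wdr12 form the PeBoW complex, which is needed to process the large subunit rRNA. Wdr12 (chromosome 1, 60071361 to 60098500) had WT levels of 134 and 80.0 CPM against KO levels of 60.6 and 51.3 CPM, with a log2 fold change of -0.93 (95% interval -1.69 to -0.18, edgeR adjusted p = 0.545). WT replicate 1 was the highest, and without it the log2 fold change was -0.51. Bop1 had WT levels of 169.8 and 139 CPM against KO levels of 98.7 and 123 CPM (-0.48, SE 0.23), and Pes1, the third subunit, had WT levels of 173 and 176 CPM against KO levels of 154 and 143 CPM (-0.23, SE 0.19). The 3 subunits thus lay on the same side with sizes that were not tested against each other.

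Ddx21, an RNA helicase that links RNA polymerase I transcription and rRNA processing, had WT levels of 310.5 and 323 CPM against KO levels of 169.8 and 267 CPM (-0.54, SE 0.28). KO replicate 1 was the lowest library of Ddx21. Nop16, a nucleolar MYC target, had WT levels of 57.7 and 51.6 CPM against KO levels of 43.6 and 31.7 CPM (-0.54, SE 0.25), with KO replicate 2 the lowest. Ppan, a homolog of the yeast assembly factor SSF1, had WT levels of 114 and 131 CPM against KO levels of 92.9 and 91.6 CPM, and Gnl3, the GTPase nucleostemin of stem cells, had WT levels of 127 and 118 CPM against KO levels of 99.4 and 87.1 CPM. Their log2 fold changes were -0.41 (SE 0.19) and -0.39 (SE 0.19). Nip7 was the exception, with WT levels of 52.0 and 49.4 CPM against KO levels of 61.1 and 42.9 CPM, and its KO libraries lay on either side of WT. The log2 fold change of Nip7 was 0.034 (SE 0.25), and -0.022 with library sizes alone as scaling.

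Of the metabolic targets, Cad (chromosome 5, 31054620 to 31078479), the multifunctional enzyme that starts pyrimidine synthesis, had the lowest fold change of the group. It had WT levels of 189 and 191 CPM against KO levels of 70.1 and 118 CPM, from raw counts of 3788 and 3595 in WT and 1133 and 2003 in KO. The WT libraries were almost equal and both KO libraries lay well below them. Its log2 fold change was -1.02 (95% interval -1.76 to -0.27, edgeR unadjusted p = 0.0165, adjusted p = 0.486), and it ran from -1.44 without KO replicate 2 to -0.69 without KO replicate 1. Over the edgeR and voom settings its adjusted p ran from 0.217 to 0.700. DESeq2 gave an adjusted p of 0.1215 over all libraries and 3.85e-04 without KO replicate 2. Srm, spermidine synthase, had WT levels of 113 and 87.8 CPM against KO levels of 70.3 and 73.3 CPM (-0.49, SE 0.21), without overlap. Nme1, a nucleoside diphosphate kinase, had WT levels of 153 and 109.7 CPM against KO levels of 124 and 81.8 CPM (-0.35, SE 0.30), and KO replicate 1 lay between the WT libraries.

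Odc1, ornithine decarboxylase and the first enzyme of polyamine synthesis (chromosome 12, 17544808 to 17551502), had the widest replicate gap of the 32 genes. It had WT levels of 162 and 151 CPM against KO levels of 78.7 and 365 CPM, so that the KO libraries were the lowest and the highest of the 4, 2.22 apart on the log2 scale. Its log2 fold change was 0.51 with a 95% interval of -1.29 to 2.31. It came to -0.99 with KO replicate 2 left out and to 1.23 with KO replicate 1 left out, where DESeq2 called it as higher (adjusted p = 0.00520). No direction can be given for Odc1 from these libraries. KO replicate 2 was also the library of highest summed level for 10 immediate early genes and for 10 heat shock genes. The immediate early sums were 1065 and 3630 CPM for WT against 1519 and 9818 CPM for KO. The heat shock sums were 1011 and 1116 CPM for WT against 653 and 1773 CPM for KO. For each list replicate 2 was the higher library in both groups. The part of these lists in the Odc1 value was not tested.

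The fold changes of the 2 translation initiation genes lay above 0. Eif4a1, the RNA helicase of the cap-binding complex, had WT levels of 240.0 and 209 CPM against KO levels of 224 and 236 CPM (0.033, SE 0.21), and its log2 fold change was -0.033 with library sizes alone as scaling. Eif4ebp1, an inhibitor of the cap-binding protein, had WT levels of 63.5 and 71.8 CPM against KO levels of 88.7 and 61.5 CPM (0.15, SE 0.25). The groups overlapped in both genes. The 95% intervals, -0.48 to 0.55 and -0.48 to 0.78, include the median of the 32 genes, so a difference from the rest of the group was not shown.

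Of the 4 remaining targets, Ran, the GTPase of nuclear transport, had WT levels of 247 and 191 CPM against KO levels of 180.5 and 188 CPM (-0.25, SE 0.23). WT replicate 1 alone was set apart, although the groups did not overlap. Phb, the mitochondrial chaperone prohibitin, had WT levels of 21.0 and 16.7 CPM against KO levels of 15.9 and 13.1 CPM (-0.38, SE 0.32), also without overlap. Apex1, a DNA repair endonuclease, had WT levels of 109 and 87.6 CPM against KO levels of 102 and 67.0 CPM (-0.22, SE 0.27), and KO replicate 1 lay between the WT libraries. Tfap4, a transcription factor induced by MYC, had WT levels of 46.3 and 39.4 CPM against KO levels of 38.4 and 46.4 CPM, and its values in the 2 groups covered the same range. The log2 fold change of Tfap4 was -0.014 (SE 0.23).

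Npm1, Ran, Eif4a1, Nme1 and Phb have near-identical copies elsewhere in the mouse genome, so reads that align to several places may be missing from their counts. Reads without a unique alignment made up 32.1% and 31.7% of all counted reads in WT and 33.1% and 26.0% in KO. Without these 5 genes, chosen after their values were seen, 24 of 27 were below 0 and the median was -0.39. Both KO values lay under WT in 19 of the 27 (70.4%), against 19.1% of all genes tested.

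The lower level was seen within each replicate number. The log2 CPM difference of KO replicate 1 from WT replicate 1 was below 0 in 30 of the 32 genes with a median of -0.40, and that of KO replicate 2 from WT replicate 2 in 27 of 32 with a median of -0.27. Both differences were below 0 in 25 of 32 (78.1%), against 28.7% of all genes tested. The 22 genes whose groups did not overlap are among these by construction, so this count is no separate support. With a library left out, 27 of the 32 genes were below 0 without the first WT library (median -0.29), 29 without the second (-0.39), 27 without the first KO library (-0.28) and 29 without the second (-0.33). The replicates of these genes lay closer together than those of the median gene tested. The median absolute log2 gap was 0.17 within WT and 0.29 within KO, against 0.27 and 0.43 over all genes tested, while the median absolute gap between the group means was 0.38, against 0.26. In 15 of the 32 genes (46.9%) the gap between genotypes was larger than both replicate gaps, against 24.2% of all genes tested. The 32 genes had at least 223 counts in every library, while the genes tested include some with far fewer, such as Klf1 with 18 to 23. Neither these gaps nor the shares over all genes tested were matched for abundance.

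**Figure D3:**
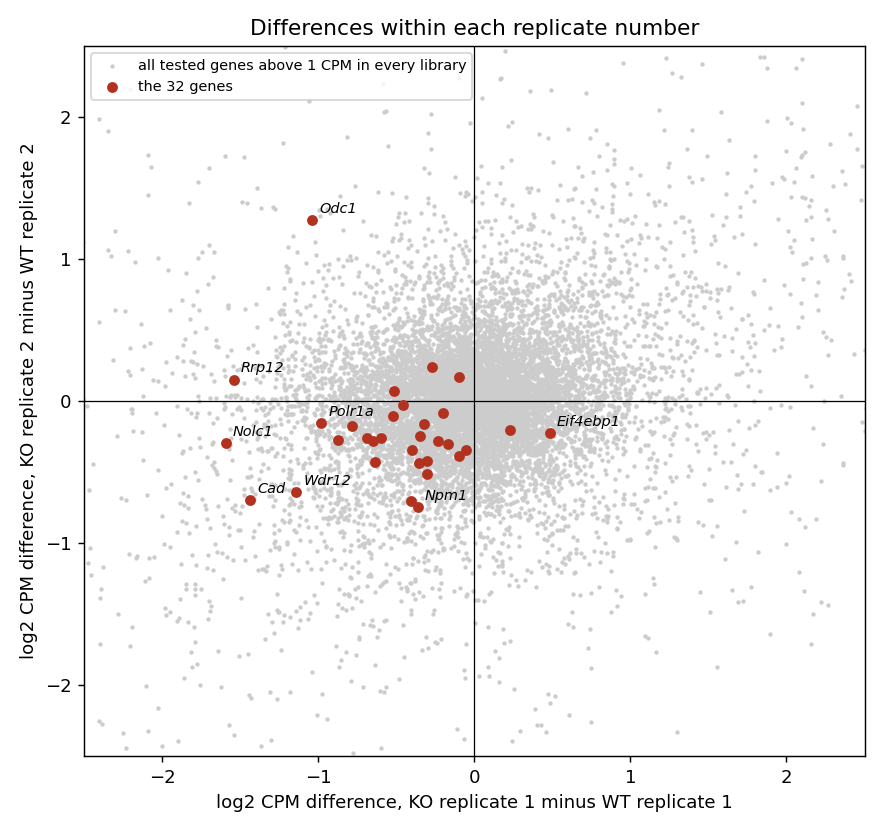
Log2 CPM difference of KO from WT within replicate number 1 (x axis) and within replicate number 2 (y axis) for the 32 genes (red) and for all tested genes above 1 CPM in every library that fall within the axes (grey). Of the 32 genes, 25 lie in the lower left part, and Odc1 lies far into the upper left.

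Fold changes were also set beside the E-box. The 8 genes with CACGTG in the window had a median log2 fold change of -0.24, with 7 of 8 below 0, and the 17 genes whose windows lacked it had a median of -0.41, with 15 of 17 below 0. Cad, Wdr12 and Nolc1, the 3 lowest genes, had no CACGTG in their windows. The difference between these sets was not tested.

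Other genes of the pathway were taken from 12 lists written from general knowledge, 235 genes in the files that are not among the 32, of which 231 were tested. None passed edgeR. At an unadjusted p of 0.05 edgeR reached 14 of the 231, against 7.67% of all genes in either direction. DESeq2 called 1, Mycl, against 2.62% of genes with an adjusted p. Outside the MYC network list, 172 of 219 genes (78.5%) were below 0, the median log2 fold change was -0.21, and 99 (45.2%) were lower in both KO libraries, against 19.1% of all genes tested, while 4 were higher in both. At an unadjusted p of 0.05, 12 of the 219 (5.48%) were lower, against 3.52% of all genes.

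The lists differed in their medians. Of all genes tested, 50.5% were below 0 and 19.1% were lower in both KO libraries. Of 44 small subunit processome genes 39 were below 0 and 27 were lower in both KO libraries, with a median of -0.23, and of 46 large subunit assembly genes 37 were below 0 and 25 lower in both, with a median of -0.22. Krr1, the processome gene with the most reads, had WT levels of 194 and 427 CPM against KO levels of 311 and 203 CPM, and Gltscr2, the large subunit factor with the most, had WT levels of 275 and 322 CPM against KO levels of 222 and 232 CPM (-0.40, SE 0.21). Krr1 overlapped between the groups and Gltscr2 did not. The 17 nucleotide synthesis genes had a median of -0.30 with 12 lower in both KO libraries. Paics, an enzyme of purine synthesis, had WT levels of 245 and 267 CPM against KO levels of 239 and 211 CPM (-0.19, SE 0.21). The 27 other MYC targets had a median of -0.31 with 12 lower in both, and Ldha, lactate dehydrogenase A, had WT levels of 1030 and 909.8 CPM against KO levels of 763 and 746 CPM. The WT libraries of Paics and of Ldha both lay above the KO libraries.

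Other lists lay closer to the median of all genes. The 14 further RNA polymerase I genes had a median of -0.063, with 4 (28.6%) lower in both KO libraries, against 19.1% of all genes tested. Ubtf, the activator of rRNA gene transcription, had WT levels of 288 and 239 CPM against KO levels of 169 and 236 CPM (-0.38, SE 0.26). The 14 RNA polymerase III genes had a median of -0.095 and the 13 RNA exosome genes one of -0.048. In each list 4 genes were lower in both KO libraries (28.6% and 30.8%, against the same 19.1%). Maf1, a repressor of RNA polymerase III, had WT levels of 102 and 123 CPM against KO levels of 146 and 117 CPM. The exosome subunit Exosc5 had WT levels of 146 and 149.8 CPM against KO levels of 101 and 94.7 CPM. The groups overlapped in Maf1, whereas in Exosc5 both KO libraries were lower. The 13 further snoRNP proteins had a median of -0.19, and the ATPase Ruvbl2 among them had WT levels of 164 and 129 CPM against KO levels of 137 and 142 CPM. The 15 further translation initiation genes had a median of -0.030, and Eif5a, a factor modified with hypusine, had WT levels of 1325 and 1227 CPM against KO levels of 1638 and 1237 CPM. The groups overlapped in Ruvbl2 and in Eif5a. The 10 Ran transport genes had a median of -0.20, and the importin Kpnb1 had WT levels of 481 and 543 CPM against KO levels of 355 and 493 CPM, also overlapping. Of 9 polyamine genes 6 were tested, with a median of -0.032, and Sat1, which acetylates polyamines for breakdown, had WT levels of 127 and 213 CPM against KO levels of 205 and 257 CPM. Amd1, Amd2 and Oaz1 are listed at 0 in all 4 libraries.

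**Figure D4:**
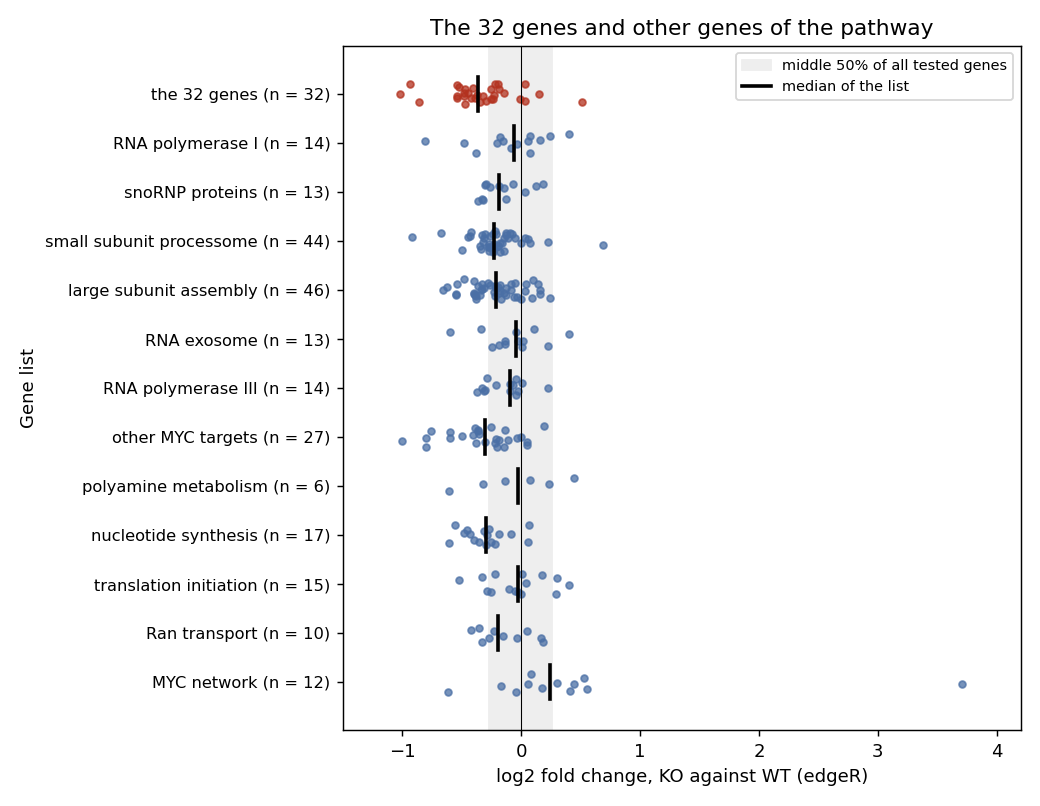
Log2 fold change of each gene, KO against WT, by edgeR, for the 32 genes (red) and 12 lists of other pathway genes (blue), with black bars for list medians and a grey band for the middle 50% of all tested genes. The medians of the processing, nucleotide synthesis and other MYC target lists lie left of 0, and that of the MYC network lies right of it, with Mycl at 3.71.

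Genes of the MYC network mostly lay above 0. Myc itself had WT levels of 115 and 186 CPM against KO levels of 154 and 137 CPM, and its groups overlapped (log2 fold change -0.047, 95% interval -0.77 to 0.67). Of 12 tested genes of the network 3 were below 0. The median was 0.24, and in 5 of the 12 genes both KO values lay above WT, against 18.1% of all genes tested. Mycl, a paralog of Myc, was higher by DESeq2 (adjusted p = 0.0255), from raw counts of 2 and 8 in WT to 74 and 41 in KO. DESeq2 lost this call without WT replicate 1 (adjusted p = 0.457), KO replicate 1 (0.939) or KO replicate 2 (0.198), and it did not pass edgeR (adjusted p = 0.444). Max, the obligate partner of MYC, had WT levels of 77.3 and 80.5 CPM against KO levels of 129 and 98.2 CPM (0.52, SE 0.22). Both KO libraries of Max lay above both WT libraries. Rn45s, the entry named for the rRNA precursor, had WT levels of 9626 and 10716 CPM against KO levels of 13457 and 7261 CPM. The KO libraries lay on either side of WT. Whether these reads came from the precursor or from rRNA cut from it was not tested, nor how far such RNA was carried into these libraries.

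Summed levels of marker lists of other states are given beside these results. The summed level of 11 neutrophil genes was 1421 and 6072 CPM for WT but 21768 and 29963 CPM for KO, and all 11 were detected in every library. Their median log2 fold change was 2.47, and 8 of the 11 were higher in both KO libraries, against 18.1% of all genes tested. DESeq2 called 5 of the 11 as higher, against 1.56% of genes with an adjusted p, and edgeR called 0. The library with the higher neutrophil sum had the lower sum of the 32 genes within WT and the higher one within KO. The part of these markers in the lower level of the 32 genes was not tested. The summed level of 20 S phase genes was 4238 and 3143 CPM for WT, beside 3394 and 3585 CPM for KO, with a median log2 fold change of -0.016. Both KO values lay under both WT values in 0 of these 20, against 19.1% of all genes tested. The 20 G2/M genes had summed levels of 3314 and 3325 CPM for WT, beside 3015 and 4310 CPM for KO, with 9 of 20 higher in both KO libraries, against 18.1% of all genes tested. The erythroid list, which is carried by Tfrc, summed to 204 and 137 CPM for WT, beside 187 and 261 CPM for KO, and overlapped between the groups. Some markers of other cell types were lower in both KO libraries, as the 32 genes were as a group. The 9 stromal and endothelial genes summed to 350.5 and 302 CPM for WT, beside 78.2 and 172 CPM for KO, and this sum is carried by Pdgfrb and Pecam1. Both of these tested genes, Pdgfrb (log2 fold change -2.74, DESeq2 adjusted p = 0.00234) and Pecam1 (-1.14, 0.182), were lower in both. Of the untested ones Cdh5 had at most 2 counts and Kdr at most 1, while Col1a1 had 5 and 3 in WT against 5 and 34 in KO. Gata2 of the mast cell list (-2.28, DESeq2 adjusted p = 0.0459) and Itga2b of the megakaryocyte list (-2.54, 0.668) were also lower in both KO libraries. Most tested genes of their lists went the other way. Of 6 tested mast cell genes 5 lay above 0, with a list median of 0.87. Of 4 tested megakaryocyte genes 3 were higher in both KO libraries, with a list median of 1.20. What part Pdgfrb, Pecam1, Gata2 and Itga2b had in the lower level of the 32 genes was not tested.

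**Figure D5:**
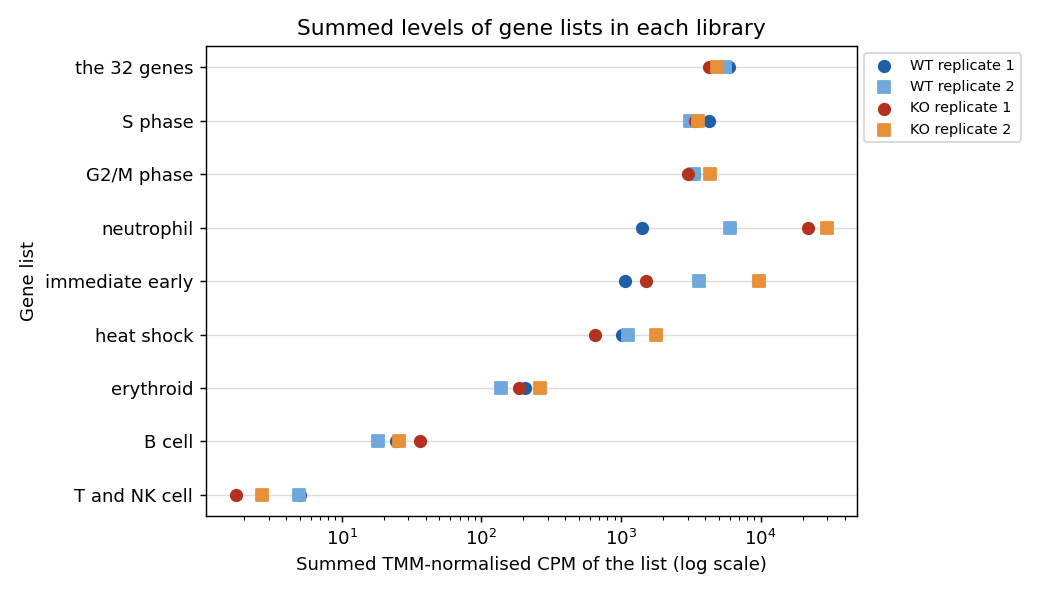
Summed TMM-normalised CPM (log axis) of the 32 genes and of 8 other lists in the 4 libraries, with circles for replicate 1, squares for replicate 2, blue for WT and red or orange for KO. The neutrophil sums of both KO libraries lie above both WT sums, and the immediate early sum is highest in KO replicate 2.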

How the data were processed

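RNA-seq libraries of sorted MLL-AF9 leukemic cells, 2 WT and 2 KO, were compared. The authors deposited unnormalised read counts for each symbol, with a file for each library. STAR 2.3.0 and HTSeq are named in the submitters' processing notes, beside tools for chromatin data, and so is build mm10, but no role is stated. No source used here states the annotation or strand setting, so overlapping genes on opposite strands may share reads. The 5 closing rows of each file, which name no gene and held 69.3% to 72.4% of all counted reads, were left out.

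Titles gave each library's group and number. Whether replicates came from separate mice is not stated, so p-values reflect only the spread of these libraries. The KO libraries, replicate 1 and then 2, had 13458 and 6 counts of Xist and 1 and 1194 of Ddx3y. They were therefore not technical repeats of the same cells. The WT libraries did not differ in this way, and their spread may be technical. Replicates differed beyond counting noise (chi-square per degree of freedom 80.5 in WT and 109 in KO). A count of 3 equals 0.156 to 0.187 CPM, and the 32 genes had 223 to 26363 counts per library, so depth was not what limited them. With 2 libraries per group the exact permutation test of a single gene cannot go below p = 0.333 (two-sided), and none was run.

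In R 4.3.3, edgeR 4.0.16 kept genes with filterByExpr, scaled with TMM, and tested KO against WT with the robust quasi-likelihood F-test and Benjamini-Hochberg adjustment over all genes at 0.05. SEs were derived from the fold change and its F. Alternatives were DESeq2 1.42.0, limma 3.58.1 (voom), other scalings, no filter, a replicate block and leaving out each library. The script was tested on simulated counts with a smaller dispersion (0.02) than edgeR estimated for these libraries (0.138), which checks the code and not the power of the design. CPM are not scaled by gene length and compare libraries, not genes. Coordinates and promoters come from RefSeq GRCm38.p6, which matched all 32 symbols.

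The 32 genes and all lists were chosen with earlier results of these data known, so no list was tested as a set. Values per library are given for the gene of most reads in each role, the 8 lowest and 3 highest fold changes, called genes and the extremes of replicate spread, and for further genes chosen after their values were seen. Of other pathway genes, those that edgeR or DESeq2 called are named, or the one of most reads in a list, with Max added after its values were seen.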

Additional observations from a re-analysis of the deposited data

How the results depend on the processing

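The group's median stayed below 0 under every setting run: the median log2 fold change of the 32 genes ran from -0.42 with library sizes alone to -0.35 with relative log expression scaling, and 28 to 30 genes were below 0 over the settings that kept all 4 libraries. With a library left out in edgeR the median ran from -0.39 to -0.28 and 0 of the 32 were called. In DESeq2 with a library left out, chosen after seeing the data, the median ran from -0.39 to -0.27, and 0 to 3 of the 32 and 0 to 4 of the other pathway genes were called, the 3 being Cad, Nolc1 and Rrp12 and the 1 call without KO replicate 1 Odc1. Over all genes edgeR called 0, 4 without the filter on low counts, and 0 to 156 with a library left out, the 50 (no WT replicate 1) and 156 (no WT replicate 2) resting on a lone WT library assumed to vary like KO. DESeq2 called 352, or 162 and 390 with the first or the second WT library left out, and 178 and 384 with the first or the second KO library left out, and 1 of the other pathway genes. With the replicate number as a block edgeR called 11 genes over all and 0 of the 32, and the median was -0.37. The labels do not say that a number marks a shared origin, and the deviations of same-numbered libraries correlated at 0.19, so the numbers were not taken as pairs. Of the single-gene values over these settings, 487 kept direction and side of the threshold, and 21 in 8 genes changed sign. With library sizes alone Eif4a1 had -0.033 and Nip7 -0.022. With a library left out, the range by edgeR and then by DESeq2 was for Rrp12 -1.52 to 0.13 and -1.52 to 0.14, for Apex1 -0.55 to 0.049 and -0.54 to 0.053, for Nop56 -0.49 to 0.054 and -0.49 to 0.063, for Tfap4 -0.16 to 0.12 and -0.15 to 0.13, for Eif4a1 -0.048 to 0.14 and -0.050 to 0.14, for Nip7 -0.24 to 0.27 and -0.23 to 0.27, for Eif4ebp1 -0.14 to 0.39 and -0.13 to 0.39, for Odc1 -0.99 to 1.23 and -0.99 to 1.24. The cause was not tested. With 2 libraries per group, the 95% interval of each of the 32 genes was wider than the size of its log2 fold change.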
